A study of Rattus norvegicus with 5 samples.

Results

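Cytochrome P450 genes encode haem enzymes that add oxygen to small fat-soluble molecules, and they were followed here through the corneas of rats with and without extra mineralocorticoid receptor. Members were all gene symbols made of Cyp, a family number, a subfamily letter and a gene number, without the cholesterol-synthesis gene Cyp51, and the same names where they occur only among isoforms. The rule found 69 members, of which 65 have a row among the 20339 genes of the gene table and 4 (Cyp2b15, Cyp2b2, Cyp4a3 and Cyp4f17) occur only in the isoform table. The rule reads names alone and uses no measured value.

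RNA of whole corneas was sequenced from 2 transgenic P1 hMR rats and 3 wild-type rats, all male, Sprague-Dawley and 6 months old. The transgenic rats carry the human gene NR3C2, which encodes the mineralocorticoid receptor, a nuclear receptor for aldosterone and glucocorticoids, and overexpress it. The promoter of the transgene and the number of founder lines are not given in the sources used here, and 1 rat per library is taken from the protocol's wording. The comparison asks how excess receptor changes the transcripts of the cornea, and the labels tell the groups apart by genotype alone. Libraries held 20874010 to 30449675 estimated counts. Human NR3C2 had 1094 and 1146 counts in the transgenic corneas and 0 in each wild-type cornea, and rat Nr3c2 averaged 5.24 ± 0.437 CPM in transgenic corneas (SD, n = 2) and 3.72 ± 0.722 CPM in wild-type corneas (SD, n = 3). CPM are counts scaled to a common library total after TMM, which matches libraries on the bulk of their genes. They are not scaled for transcript length, so that levels are compared here between corneas and not between genes.

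P450s draw electrons from partner proteins, mainly from NADPH-P450 reductase at the endoplasmic reticulum and from ferredoxin in mitochondria. Some members build or break down hormones and signals (steroids, vitamin D, retinoic acid, arachidonic acid products), and others, most of them best known from liver, oxidise drugs and pollutants. In the cornea they are known above all for arachidonic acid products made in the epithelium and, through the human relative of Cyp4v3, for Bietti crystalline corneoretinal dystrophy. The libraries were rich in corneal epithelium: the 8 markers of that layer in the gene table, among them the corneal keratin Krt12, summed to 124000 and 98500 CPM in transgenic corneas and to 106000 to 120000 CPM in wild-type corneas, with no marker at 0 in every cornea. The 7 markers of the stroma summed to 2110 and 2270 CPM in transgenic corneas, above the 1760 to 1950 CPM of wild-type corneas, and the 7 of the endothelium to 1240 and 1250 CPM against 1040 to 1110 CPM in wild-type corneas, none of them at 0 in every cornea. The 9 pigment cell and iris markers summed to 246 and 322 CPM in transgenic corneas against 173 to 221 CPM in wild-type corneas, none at 0 in every cornea. Most of that sum is Gpnmb, which macrophages also express, with 157.6 and 158.7 CPM in transgenic corneas and 163.2 to 184.6 CPM in wild-type corneas. The other 8 markers summed to 88.8 and 164 CPM in transgenic corneas and to 10.3 to 50.2 CPM in wild-type corneas, and both transgenic corneas were above all wild-type corneas for each of the 8, where 12% of all genes lay so. Tyrp1, a melanin-forming enzyme, had 41.91 and 79.94 CPM in transgenic corneas and 23.07, 2.94 and 16.26 CPM in wild-type corneas (edgeR adjusted p = 0.829). The 8 retina and pigment epithelium markers summed to 21.1 and 25.8 CPM in transgenic corneas and to 7.34 to 24.3 CPM in wild-type corneas, none at 0 in every cornea. Both transgenic corneas were above all wild-type corneas for 5 of these 8, among them Rpe65, the retinoid isomerase of the pigment epithelium, with 2.7 and 2.26 CPM in transgenic corneas and 1.19, 0.0979 and 0.865 CPM in wild-type corneas (edgeR adjusted p = 0.749). The part of these cells in the P450 values below was not tested. In such whole-tissue RNA, fewer cells of a type and less RNA per cell cannot be told apart.

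No P450 gene passed the test between the genotypes. Of the 65 members in the gene table, 14 were at 0 in every cornea, 22 had counts but fell below the filter on low counts, and 29 were tested. With edgeR's quasi-likelihood test and Benjamini-Hochberg adjustment over all 13304 genes tested, 0 of the 29 rose and 0 fell at an adjusted p under 0.05, against 0.00752% of all genes, which is human NR3C2 alone. DESeq2 and limma voom also called 0. At an unadjusted p under 0.05 stood 2 of the 29, or 6.9%, against 6.32% of all genes, and 3 by DESeq2 and 2 by limma voom. The members' median log2 fold change was -0.06, against -0.01 over all genes, and 13 of the 29 (44.8%) lay above 0, against 48.2% of all genes. Both transgenic corneas lay above all wild-type corneas for 5 members, Cyp2b21, Cyp2t1, Cyp4f39, Cyp4f6 and Cyp20a1, which is 17.2% against 12% of all genes. Both lay below all wild-type corneas for 4 members, Cyp3a9, Cyp4f5, Cyp26c1 and Cyp11a1, or 13.8% against 10.7% of all genes. Each of these shares is near that of the genes as a whole.

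**Figure D1:**
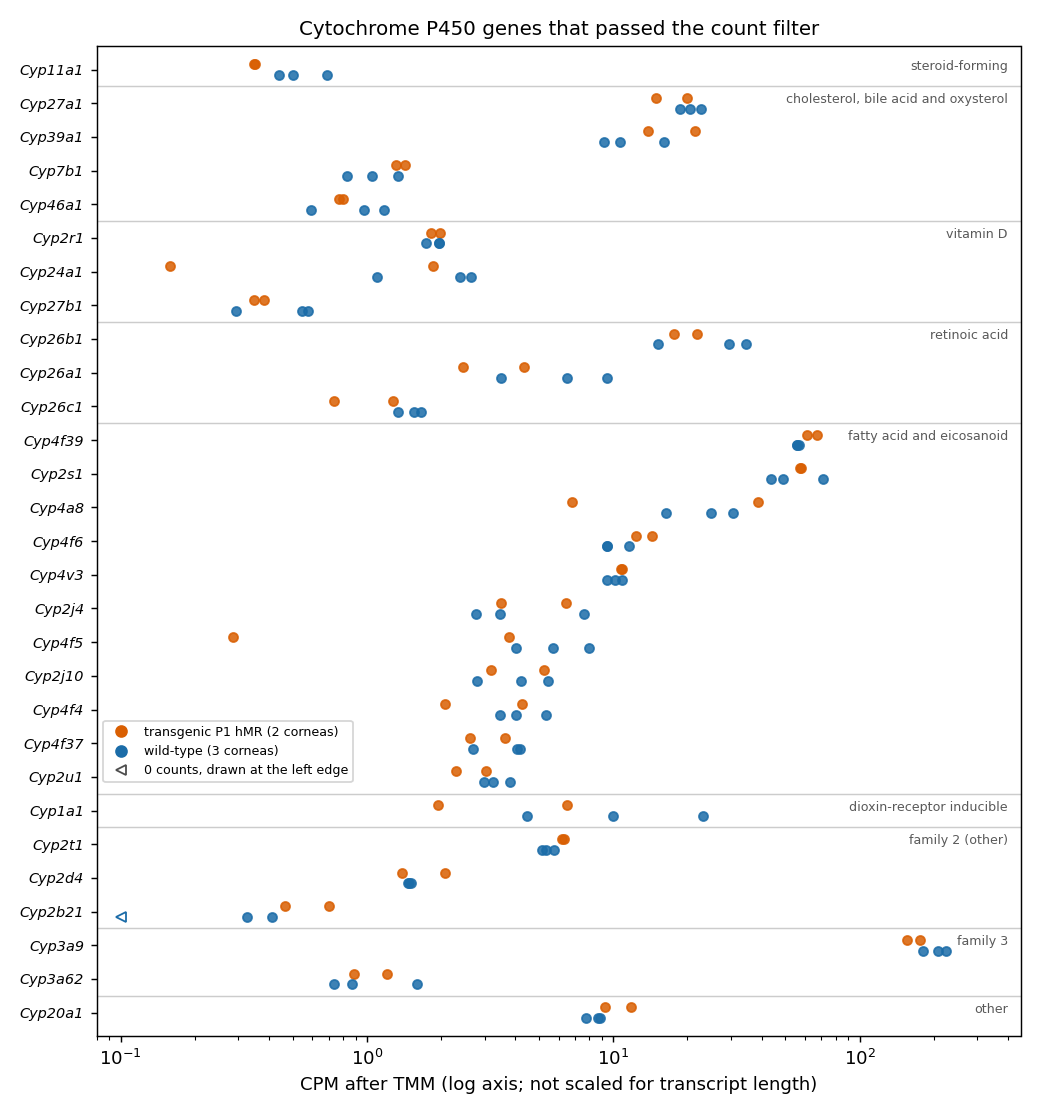
Level of the 29 P450 genes of the gene table that passed the filter, 1 point per cornea, in CPM after TMM on a log axis, grouped by role with transgenic corneas drawn above wild-type ones. The points of the genotypes overlap for most genes, and Cyp4f5 and Cyp24a1 each have 1 transgenic cornea far to the left of the other 4.

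Counts on P450 rows summed to 415.2 and 476.4 CPM in the transgenic corneas, against 495.3, 501.9 and 471.9 CPM in the wild-type corneas, so the ranges overlapped. Between 36.8% and 44.8% of that sum fell on a single gene, Cyp3a9. A P450 row with at least 3 counts was found 35 and 38 times in the transgenic corneas and 34, 33 and 33 times in the wild-type corneas. These numbers are not scaled for depth. In the same order, the transgenic libraries held 26280687 and 30449675 counts and the wild-type ones 27692181, 20874010 and 21920046 counts, and the part of depth was not tested. For the 14 members at 0, the limit that a count of 0 allows, 3 counts in a library, is 0.0955 to 0.147 CPM. Among them are Cyp19a1 (aromatase, which makes oestrogens), Cyp7a1 (the rate-limiting enzyme of bile acid synthesis) and Cyp2c7, Cyp2c12, Cyp2c22 and Cyp2c23 of the drug and fatty acid oxidising subfamily 2c. Of the 22 members below the filter, 11 never exceeded 3 counts in a cornea, and the highest count, 23, was Cyp2f4 in transgenic cornea 2. The liver P450s of this group were near the floor: Cyp2e1 had 0 and 1 counts in transgenic corneas and 1 count in each wild-type cornea, and Cyp2c11 had a single count, in transgenic cornea 2. Cyp1b1, known for the congenital glaucoma that follows its loss in people, had 1.7 and 3.49 counts in transgenic corneas and 8.22, 1 and 3 counts in wild-type corneas.

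The steroid-forming P450s turn cholesterol into adrenal and sex steroids, among them the ligands of the transgenic receptor. Cyp11a1, the side-chain cleavage enzyme that starts the pathway, was the only one of 5 members to pass the filter. It had 9 and 11 counts in transgenic corneas and 19, 9 and 11 counts in wild-type corneas, or 0.347 and 0.350 CPM against 0.686, 0.440 and 0.501 CPM. Both transgenic corneas were lowest, but the log2 fold change of -0.64 ± 0.55 (SE) had an adjusted p of 0.878 by edgeR. Its row also exceeds its own-name isoform by up to 9 counts, a gap as large as the count of a cornea. Cyp21a1, the hydroxylase shared by aldosterone and corticosterone synthesis, had 4.51 and 3.52 counts in transgenic corneas and 1.12 to 5.51 counts in wild-type corneas. Cyp17a1, which leads towards androgens, had a single count in transgenic cornea 1, and Cyp11b3, a rat adrenal relative of the last enzymes of the pathway, a single count in wild-type cornea 1. No member bore the name Cyp11b1 or Cyp11b2, the last steps to corticosterone and aldosterone, so these were not analysed here. The 3 adrenal markers in the table summed to 2.27 and 2.45 CPM in transgenic corneas and to 2.4 to 3.01 CPM in wild-type corneas. Nearly all of that was Star, with 2.275 and 2.388 CPM in transgenic corneas and 2.398 to 3.005 CPM in wild-type corneas. Nr5a1 had 2 counts in transgenic cornea 2 and 0 elsewhere, and Mc2r, the adrenal receptor of corticotropin, was at 0 in every cornea.

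Outside the P450s, 17 genes of steroid synthesis and conversion were tested, and 0 rose and 0 fell, with a median log2 fold change of -0.02. Akr1c14, which reduces steroid ketones, averaged 57.7 ± 0.516 CPM in transgenic corneas (SD, n = 2) and 46 ± 6.76 CPM in wild-type corneas (SD, n = 3), with an edgeR adjusted p of 0.731. Tspo, a mitochondrial cholesterol-binding protein, averaged 144 ± 6.87 CPM in transgenic corneas and 141 ± 16.2 CPM in wild-type corneas, with an edgeR adjusted p of 0.976. Neither difference passed the test.

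Of the 6 members that oxidise cholesterol and its products, 4 were tested, and 0 rose and 0 fell. Cyp27a1, the mitochondrial sterol hydroxylase that also opens bile acid synthesis outside the classical route, had 19.97 and 14.87 CPM in transgenic corneas and 22.75, 20.5 and 18.62 CPM in wild-type corneas. The corneas overlapped, and the log2 fold change was -0.25 ± 0.16 (SE, edgeR adjusted p = 0.856), with -0.05 without transgenic cornea 2 and -0.47 without transgenic cornea 1. Cyp39a1, an oxysterol hydroxylase, had 13.88 and 21.43 CPM in transgenic corneas against 9.208, 10.67 and 16.07 CPM in wild-type corneas. Its log2 fold change of 0.56 ± 0.28 did not pass the test (edgeR adjusted p = 0.833), and wild-type cornea 3 lay above transgenic cornea 1. Without transgenic cornea 2 it was 0.22, and between 0.41 and 0.84 without any other single cornea. The remaining pair were low, with 1.31 and 1.43 CPM in transgenic corneas and 0.832 to 1.34 CPM in wild-type corneas for Cyp7b1, another oxysterol hydroxylase, and 0.771 and 0.796 CPM against 0.592 to 1.17 CPM for Cyp46a1, which in brain forms the sterol that carries cholesterol out. Cyp39a1 was highest in transgenic cornea 2, where the 7 conjunctiva and gland markers in the table, none at 0 in every cornea, also summed highest, 5640 CPM against 3130 CPM in the other transgenic cornea and 2830 to 4390 CPM in wild-type corneas. Most of that sum in transgenic cornea 2 was Krt13, with 3949 CPM, and Krt4, with 1562 CPM. Krt7 was lowest there, with 127.3 CPM against 227.5 CPM in transgenic cornea 1 and 196.4 to 365 CPM in wild-type corneas. Spdef was highest in wild-type cornea 3, and Muc5b, Foxa3 and Agr2 never exceeded 5 counts in a cornea. The part of conjunctiva and gland cells in the Cyp39a1 level was not tested.

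Vitamin D is activated and cleared by 3 members, and all 3 passed the filter. Cyp2r1, which makes the circulating form, did not separate the genotypes, with 1.81 and 1.97 CPM in transgenic corneas and 1.73, 1.96 and 1.96 CPM in wild-type corneas and a log2 fold change of 0.01 ± 0.31 (SE, edgeR adjusted p = 0.997). Between 82.8% and 100% of its counts lie on 1 isoform that the isoform table gives no gene name. Cyp27b1, which makes the active hormone, was near the floor with 9 and 12 counts in transgenic corneas and 16, 6 and 12 counts in wild-type corneas (log2 fold change -0.38 ± 0.57, edgeR adjusted p = 0.932). Cyp24a1, which inactivates the hormone and is a classical target of its receptor, had 1.85 and 0.159 CPM in transgenic corneas, against 2.38, 2.64 and 1.09 CPM in wild-type corneas. Transgenic cornea 2 alone stood apart, with 5 counts against 24 to 66 counts in the other 4 corneas. The log2 fold change of -1.05 ± 0.91 (edgeR adjusted p = 0.878) became -0.14 without that cornea and -3.64 without transgenic cornea 1. Of the 4 other vitamin D genes tested, 0 rose and 0 fell, with a median log2 fold change of 0.12. The vitamin D receptor Vdr averaged 13 ± 2.72 CPM in transgenic corneas (SD, n = 2) and 11.6 ± 0.332 CPM in wild-type corneas (SD, n = 3), with an edgeR adjusted p of 0.896.

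The Cyp26 enzymes clear retinoic acid, the vitamin A signal that keeps corneal epithelium from turning skin-like, and Cyp26a1 is itself a textbook target of the retinoic acid receptors. All 3 members had negative log2 fold changes and 0 fell by the test. Their upstream sequences are shown to let the 3 be compared, since the retinoic acid response is a known feature of Cyp26a1. Each is the RefSeq sequence (build GRCr8) of the 250 bases before the gene start, read along the gene's strand. Capitals mark TGAACT, which is the retinoid receptor letters AGTTCA read on the other strand. The windows lie at chr1:244883572-244883821 on the plus strand for Cyp26a1, at chr4:118616177-118616426 on the minus strand for Cyp26b1 and at chr1:244870162-244870411 on the plus strand for Cyp26c1.
Cyp26a1: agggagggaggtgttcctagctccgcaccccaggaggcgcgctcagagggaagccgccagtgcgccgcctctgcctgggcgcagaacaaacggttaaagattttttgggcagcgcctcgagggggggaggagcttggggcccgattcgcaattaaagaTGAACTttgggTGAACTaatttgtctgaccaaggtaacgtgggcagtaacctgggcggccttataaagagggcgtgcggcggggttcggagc
Cyp26b1: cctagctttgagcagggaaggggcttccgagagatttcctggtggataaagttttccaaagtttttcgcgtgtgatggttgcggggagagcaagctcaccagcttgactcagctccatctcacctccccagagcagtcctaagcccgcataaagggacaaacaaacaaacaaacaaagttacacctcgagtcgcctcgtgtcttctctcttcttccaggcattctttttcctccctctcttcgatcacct
Cyp26c1: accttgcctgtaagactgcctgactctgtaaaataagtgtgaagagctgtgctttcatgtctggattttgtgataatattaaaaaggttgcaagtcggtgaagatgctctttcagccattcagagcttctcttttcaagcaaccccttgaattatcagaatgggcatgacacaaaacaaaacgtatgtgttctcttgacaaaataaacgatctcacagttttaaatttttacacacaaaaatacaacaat

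The Cyp26a1 window holds the marked letters at positions -92 to -87 and -81 to -76 from the gene start, a direct repeat with 5 bases between. Such a repeat, AGTTCA followed after any 5 bases by AGTTCA, searched on both strands, occurs in 3 of 27456 rat windows, or 0.0109%, and in 1 of the 56 P450 windows, which is that of Cyp26a1. Only this spelling was searched, so these shares do not show how common retinoid repeats of other spellings are, in Cyp26a1 or elsewhere. The single letters AGTTCA, which the repeat contains, occur in 12 of the 56 P450 windows, or 21.4%, and in 12.1% of all windows. The Cyp26b1 and Cyp26c1 windows hold neither, which says only that these letters are not there. Of the 69 members, 56 have such a window, and Cyp1a1, Cyp24a1 and Cyp4f17 are among the 13 without. In the RefSeq gene order Cyp26c1 and Cyp26a1 are neighbours.

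Cyp26a1 had 4.36 and 2.45 CPM in transgenic corneas, against 9.42, 6.46 and 3.51 CPM in wild-type corneas. Wild-type cornea 3 lay between the 2 transgenic corneas, and the log2 fold change of -0.94 ± 0.46 (SE) had an edgeR adjusted p of 0.829. Cyp26b1, the most counted of the 3, had 17.62 and 21.81 CPM in transgenic corneas, against 34.59, 29.41 and 15.21 CPM in wild-type corneas. Wild-type cornea 3 was again the low one, below both transgenic corneas, and the log2 fold change was -0.42 ± 0.37 (edgeR adjusted p = 0.883). Of the Cyp26b1 counts in wild-type cornea 3, 38.2% lie on 1 isoform without a gene name, against 2.72% to 14.7% in the other 4 corneas. Cyp26c1 had 1.27 and 0.732 CPM in transgenic corneas and 1.34, 1.66 and 1.55 CPM in wild-type corneas, so that both transgenic corneas were lowest (log2 fold change -0.60 ± 0.41, edgeR adjusted p = 0.86). The gap between transgenic cornea 1 and wild-type cornea 1 was small, with 33 against 37 counts. With single corneas left out, the log2 fold change ran from -1.40 (without transgenic cornea 1) to -0.55 (without wild-type cornea 1) for Cyp26a1. It ran from -0.70 (without wild-type cornea 3) to -0.17 (without wild-type cornea 1) for Cyp26b1, and from -1.04 (without transgenic cornea 1) to -0.25 (without transgenic cornea 2) for Cyp26c1. Cyp26a1 was highest in wild-type cornea 1, where the 12 lens markers, none at 0 in every cornea, also summed highest, 153 CPM against 27.7 and 35.1 CPM in the other wild-type corneas and 12.1 and 19.2 CPM in transgenic corneas. The part of lens cells in these levels was not tested.

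Among 19 other retinoid genes tested, 0 rose and 0 fell, and their median log2 fold change was 0.07, against -0.01 over all genes. An unadjusted p under 0.05 was reached by 4 of these 19, against 6.32% of all genes. The same count was 2 of 17 for the steroid list, 2 of 16 for the arachidonic acid list, 1 of 4 for the vitamin D list, 1 of 16 for the dioxin receptor and sensor list and 0 of 9 for the redox partners. Stra6, the membrane receptor that takes up retinol, had 5.822 and 5.826 CPM in transgenic corneas against 2.347, 2.985 and 3.005 CPM in wild-type corneas. The corneas did not overlap, and the log2 fold change of 1.07 ± 0.24 (SE) had an edgeR adjusted p of 0.404. Stra6 is also a gene of the retinal pigment epithelium, whose markers, given above, were higher in the same corneas, and their part in it was not tested. Rarb, a retinoic acid receptor and itself a known retinoic acid target, had 8.17 and 10.7 CPM in transgenic corneas against 5.38, 5.63 and 6.28 CPM in wild-type corneas (log2 fold change 0.72 ± 0.19, edgeR adjusted p = 0.492). Aldh1a1, which makes retinoic acid and is a major soluble protein of the cornea, averaged 681 ± 18.2 CPM in transgenic corneas (SD, n = 2) and 570 ± 49.4 CPM in wild-type corneas (SD, n = 3), with an edgeR adjusted p of 0.77.

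**Figure D2:**
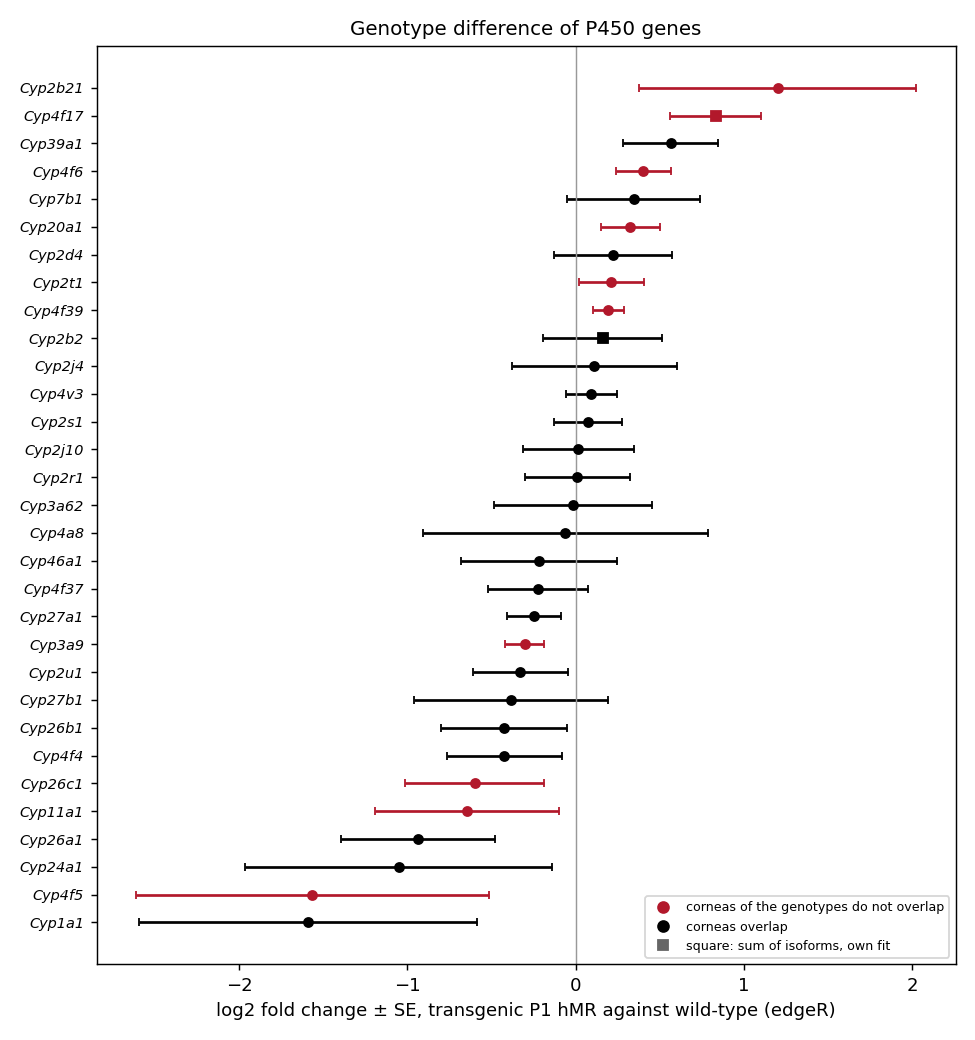
Log2 fold change of each tested P450 gene, transgenic against wild-type, with its SE from edgeR, on the x axis and genes down the page. Red points are genes whose corneas do not overlap between genotypes, and squares are the isoform sums Cyp4f17 and Cyp2b2, which come from a fit of their own. The widest bars belong to Cyp4f5, Cyp1a1, Cyp24a1, Cyp4a8 and Cyp2b21, and no gene passed the adjusted threshold.

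A group of 20 members oxidises fatty acids and arachidonic acid products, and 12 of them were tested, including Cyp4f17. Cyp4f enzymes put a hydroxyl at the end of the fatty acid chain and inactivate leukotrienes. Cyp4f6 had 12.38 and 14.36 CPM in transgenic corneas, against 9.388, 9.396 and 11.61 CPM in wild-type corneas. Both transgenic corneas were highest, the log2 fold change was 0.40 ± 0.16 (SE), and the edgeR unadjusted p of 0.0346 became 0.753 after adjustment. Cyp4f39, whose human relative hydroxylates the ultra-long fatty acids of skin barrier lipids, had 60.88 and 67.27 CPM in transgenic corneas, against 55.5, 56.96 and 55.6 CPM in wild-type corneas. The wild-type corneas lay close together and the transgenic ones above them, with a log2 fold change of 0.19 ± 0.09 and an edgeR adjusted p of 0.81. Cyp4f17, named only among isoforms, had 10.46 and 14.63 CPM in transgenic corneas and 6.814, 5.377 and 8.956 CPM in wild-type corneas, on the scale of isoform sums. Again the corneas did not overlap, and the log2 fold change of 0.83 ± 0.27 had an edgeR unadjusted p of 0.0218 and an adjusted p of 0.949 over 12982 gene names. In that fit 0.0154% of names were called, 5.02% had an unadjusted p under 0.05 and 11.6% had both transgenic corneas above all wild-type ones, and 10.4% below. Cyp2b2, the other name in that fit, overlapped between the genotypes.

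These Cyp4f values are not independent of each other. In the gene order Cyp4f39, Cyp4f17, Cyp4f5 and Cyp4f37 follow one another, and the rows of the gene table split the isoforms named Cyp4f17 between the flanking genes. The Cyp4f39 row equals its own isoforms plus 1 isoform named Cyp4f17, within 0.06 counts in each cornea. That isoform held 194.75 and 366 counts in transgenic corneas and 135, 82.52 and 134.81 counts in wild-type corneas, or 12.3% and 17.3% of the Cyp4f39 row against 8.78%, 7.09% and 11%. It was the only P450 isoform of 37 tested with an unadjusted p under 0.05 (log2 fold change 0.94 ± 0.30, edgeR adjusted p = 1). With isoforms summed by name, the log2 fold change of Cyp4f39 itself was 0.10, against 0.19 for the row. Of the 37 P450 isoforms, 0 were called, as was 0% of the 27110 isoforms tested, of which 3.98% had an unadjusted p under 0.05. Both transgenic corneas lay above all wild-type ones for 6 P450 isoforms, or 16.2% against 11.2% of all isoforms, and below them for 5, or 13.5% against 9.54%.

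The Cyp4f5 row in turn equals its own isoform plus the second isoform named Cyp4f17. That second isoform had 25.93 and 6.62 counts in transgenic corneas and 18.59, 7.08 and 24.98 counts in wild-type corneas. Unlike the first, it overlapped between the genotypes, with a log2 fold change of -0.23 ± 1.00 (SE). Cyp4f5 had 3.78 and 0.287 CPM in transgenic corneas, against 5.71, 4.01 and 7.97 CPM in wild-type corneas. Both transgenic corneas were lowest, but they were 13.2-fold apart, a ratio reached by 0.0578% of 12111 genes with at least 1 CPM. On its own isoform the counts were 72.58 and 2.76 in transgenic corneas and 139.27, 74.92 and 150.02 in wild-type corneas. The log2 fold change of the row, -1.56 ± 1.05 (SE), had an edgeR adjusted p of 0.861. Without transgenic cornea 1, which leaves a lone transgenic cornea assumed to vary like the wild-type ones, it was -4.34 ± 0.57 with an edgeR adjusted p of 0.0174, and 0.266% of all genes were then called. Without transgenic cornea 2 it was -0.64 (edgeR adjusted p = 1). Cyp4f5 was thus called from transgenic cornea 2 alone and in no other fit that left out a cornea.

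**Figure D3:**
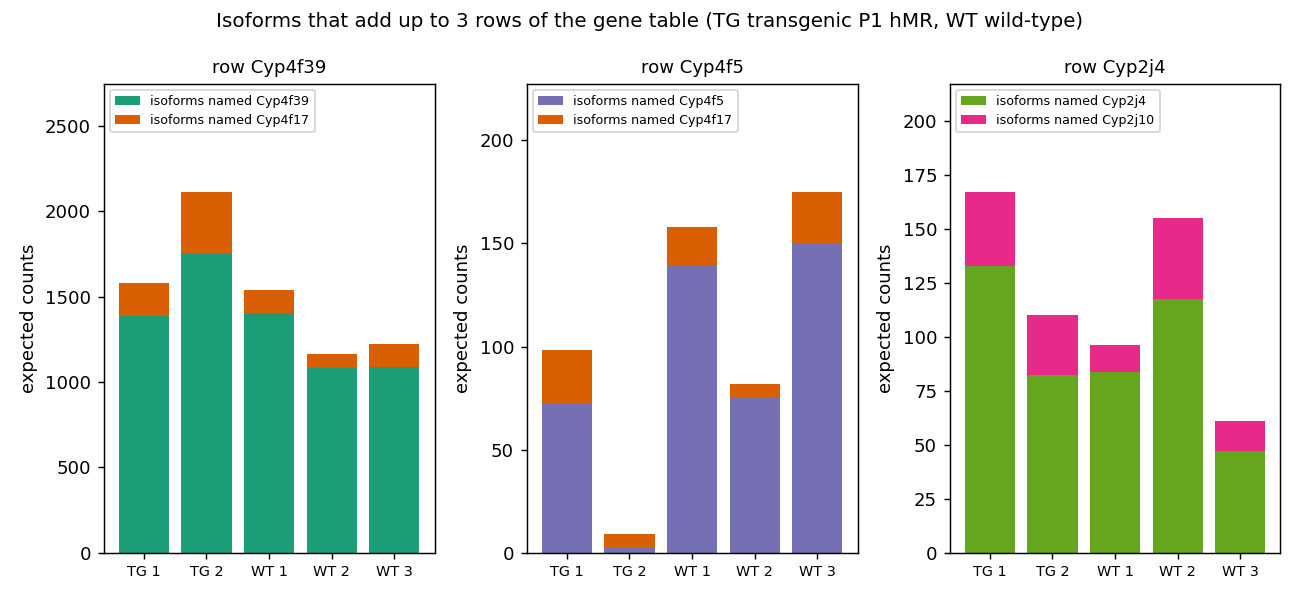
Expected counts of the rows Cyp4f39, Cyp4f5 and Cyp2j4 in each cornea (TG transgenic, WT wild-type), stacked by the gene name of the isoforms that add up to the row. Isoforms named Cyp4f17 make up 12.3% and 17.3% of the Cyp4f39 row in transgenic corneas and 7.09% to 11% in wild-type corneas, and the Cyp4f5 row is nearly empty in TG 2.

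Cyp4a8, a fatty acid hydroxylase of the subfamily that peroxisome-proliferator receptors induce in liver, had 6.79 and 38.71 CPM in transgenic corneas, against 16.32, 30.63 and 24.86 CPM in wild-type corneas, so the transgenic corneas were both the lowest and the highest of the 5. The log2 fold change was -0.06 ± 0.85 (SE, edgeR adjusted p = 0.995), and without transgenic cornea 1 it was 0.70. Cyp2s1, an enzyme of surface epithelia that oxidises eicosanoids, had 57.14 and 57.56 CPM in transgenic corneas and 43.87, 48.74 and 70.9 CPM in wild-type corneas, which bracketed them (log2 fold change 0.07 ± 0.20, edgeR adjusted p = 0.968). Cyp4v3, the counterpart of the Bietti dystrophy gene, varied little, with 10.76 and 10.89 CPM in transgenic corneas and 9.46, 10.13 and 10.88 CPM in wild-type corneas (log2 fold change 0.09 ± 0.15, edgeR adjusted p = 0.938). Its values overlapped between the genotypes. The other tested members of the group, Cyp2j4, Cyp2j10, Cyp2u1, Cyp4f4 and Cyp4f37, had log2 fold changes of -0.42 to 0.11, and their corneas overlapped, with adjusted p-values of 0.873 to 0.995 by edgeR. Cyp2j4 and Cyp2j10 are relatives of the human epoxygenase that makes epoxides from arachidonic acid. The Cyp2j4 row also holds 3 isoforms named Cyp2j10, so that the 2 genes cannot be read apart cleanly.

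Of 16 other genes of arachidonic acid metabolism tested, 0 rose and 0 fell, with a median log2 fold change of -0.08. Ephx3, an epoxide hydrolase that acts on products of the epoxygenases, had 6.13 and 5.32 CPM in transgenic corneas against 10.29, 10.33 and 9.24 CPM in wild-type corneas. The corneas did not overlap, and the log2 fold change was -0.80 ± 0.18 (SE, edgeR adjusted p = 0.404). Ephx2, the soluble epoxide hydrolase, is named after its values were seen because it was low in transgenic cornea 2, as Cyp4f5 and Cyp24a1 were. It had 11.84 and 0.860 CPM in transgenic corneas and 10.44, 11.94 and 11.61 CPM in wild-type corneas (edgeR adjusted p = 0.921).

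Cyp1a1 is the classical target of the aryl hydrocarbon (dioxin) receptor and clears polycyclic pollutants. It had 6.52 and 1.94 CPM in transgenic corneas, against 23.15, 4.45 and 9.93 CPM in wild-type corneas. The corneas overlapped, wild-type cornea 1 was the highest, and the log2 fold change of -1.59 ± 1.00 (SE) had an edgeR adjusted p of 0.86. Its ratio of 5.2 between the highest and lowest wild-type cornea was reached by 0.652% of genes. Cyp1a2, the liver member of the pair, had 5 counts in transgenic cornea 2 and 0 elsewhere. Cyp1a1, like Cyp26a1, was highest in the cornea with the highest lens sum, given above, and the part of lens cells in it was not tested. Of 16 genes for the receptor, its other targets and related sensors, 0 rose and 0 fell, with a median log2 fold change of 0.08. The receptor gene Ahr had 95.85 and 115.3 CPM in transgenic corneas against 77.31, 85.88 and 97.12 CPM in wild-type corneas (edgeR adjusted p = 0.777). Aldh3a1, a dioxin-receptor target elsewhere and an abundant crystallin-like protein of the cornea, averaged 31430 ± 3501 CPM in transgenic corneas (SD, n = 2) and 33330 ± 1913 CPM in wild-type corneas (SD, n = 3), with an edgeR adjusted p of 0.932.

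**Figure D4:**
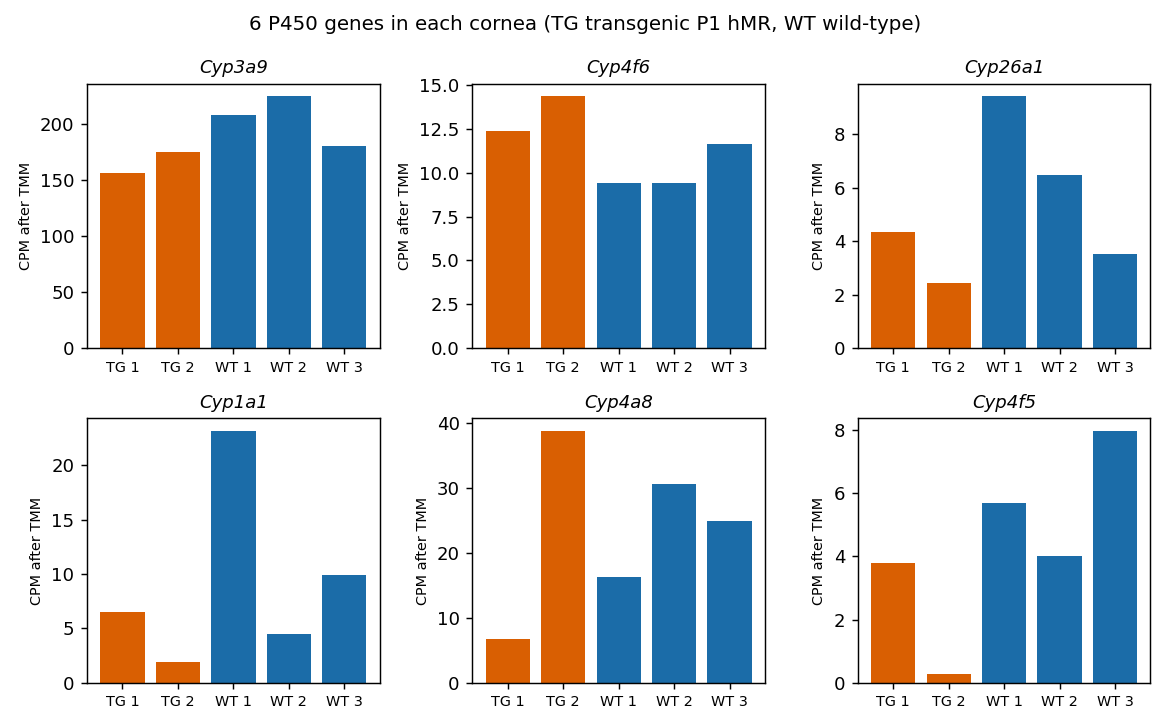
Level of 6 P450 genes in each cornea, as bars in CPM after TMM, with a scale of its own for each gene (TG transgenic, WT wild-type). Cyp3a9 is lower and Cyp4f6 higher in both transgenic corneas, while Cyp1a1, Cyp4a8 and Cyp4f5 differ several-fold between corneas of 1 genotype.

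Cyp3a9 belongs to the subfamily that hydroxylates steroids and many drugs, and it took more counts than any other member. It had 156.1 and 175.2 CPM in transgenic corneas, against 207.8, 224.8 and 180.8 CPM in wild-type corneas. Both transgenic corneas were lowest, by a narrow gap to wild-type cornea 3. The log2 fold change was -0.30 ± 0.12 (SE), and the edgeR unadjusted p of 0.0263 became 0.731 after adjustment. Its sign held without any single cornea, from -0.39 to -0.22, but its unadjusted p, like that of Cyp4f6, was above 0.05 without wild-type cornea 1 or without wild-type cornea 2, where 0 members remained under that value. At least 99.1% of its counts in each cornea lie on its own-name isoform. Its RefSeq window (GRCr8, chr12:21960161-21960410, minus strand, 250 bases before the gene start) is shown because Cyp3a9 had the smallest unadjusted p of the 29, with capitals on TGTTCT, the letters that steroid receptors such as the mineralocorticoid receptor bind as one arm of a palindrome.
Cyp3a9: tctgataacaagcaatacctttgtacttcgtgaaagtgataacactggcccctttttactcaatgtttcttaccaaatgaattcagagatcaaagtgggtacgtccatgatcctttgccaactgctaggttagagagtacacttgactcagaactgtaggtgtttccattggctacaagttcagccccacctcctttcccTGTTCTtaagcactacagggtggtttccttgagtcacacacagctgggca

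The capitals lie at positions -50 to -45. TGTTCT, searched on both strands, occurs in 17.1% of the 27456 windows and in 13 of the 56 P450 windows, or 23.2%. The full palindrome, AGAACA followed after any 3 bases by TGTTCT, occurs in 1 window of the 27456 and in 0 of the P450 windows. GCGTG, the core letters of the dioxin receptor's element, occur in 27.2% of all windows and in 16 of the P450 windows, or 28.6%. The liver-type relatives Cyp3a18 and Cyp3a23/3a1 were at 0 in every cornea. Cyp3a62, known from rat intestine, had 0.887 and 1.21 CPM in transgenic corneas and 0.867, 0.734 and 1.59 CPM in wild-type corneas (log2 fold change -0.02 ± 0.47, edgeR adjusted p = 0.997). The estimate placed it on another isoform in transgenic cornea 1, with 23 counts there, than in the other 4 corneas, with 15 to 38 counts. The 5 liver markers in the table summed to 5.2 and 10 CPM in transgenic corneas and to 2.87 to 4.89 CPM in wild-type corneas, with Alb and Fgb at 0 in every cornea. The rest did not move together, and Ttr and Serpina1 made up most of the sum. Ttr had 2.969 and 4.33 CPM in transgenic corneas and 2.275, 0.1957 and 0.683 CPM in wild-type corneas. Serpina1 overlapped between the genotypes, with 2.082 and 5.476 CPM in transgenic corneas and 1.661, 4.404 and 1.958 CPM in wild-type corneas. Apoa1, below the filter and so not tested, had 4 and 7 counts in transgenic corneas and 8, 6 and 5 counts in wild-type corneas.

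The other family 2 members are mostly drug-oxidising enzymes of liver, and 10 of the 24 were at 0 in every cornea. The 4 tested ones had positive log2 fold changes and none passed the test. Cyp2t1 had 6.29 and 6.21 CPM in transgenic corneas and 5.13, 5.73 and 5.33 CPM in wild-type corneas, with no overlap and a log2 fold change of 0.21 ± 0.19 (SE, edgeR adjusted p = 0.881). Cyp2b21 had 12 and 22 counts in transgenic corneas and 9, 0 and 9 counts in wild-type corneas (log2 fold change 1.2 ± 0.82, edgeR adjusted p = 0.86). Cyp2d4, of the subfamily that oxidises many drugs and in rats is known from brain, averaged 1.73 ± 0.482 CPM in transgenic corneas (SD, n = 2) and 1.48 ± 0.0175 CPM in wild-type corneas (SD, n = 3), and the corneas overlapped. Cyp2b2, which phenobarbital induces in rat liver, had 2.6 and 4 CPM in transgenic corneas and 2.35, 3.35 and 3.19 CPM in wild-type corneas on the scale of isoform sums (log2 fold change 0.16 ± 0.35, edgeR adjusted p = 0.981). Cyp20a1, a P450 without a settled substrate, had 9.29 and 11.78 CPM in transgenic corneas, above the 8.67, 7.73 and 8.83 CPM of the wild-type corneas. The corneas did not overlap, but the difference did not pass the test (log2 fold change 0.33 ± 0.17, edgeR adjusted p = 0.833), and the log2 fold change was 0.14 without transgenic cornea 2 and 0.48 without transgenic cornea 1.

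No electron partner of the P450s passed the test. Of 9 redox genes tested, 0 rose and 0 fell, and their median log2 fold change was -0.07. Por, the reductase that serves the endoplasmic reticulum members, had 186 and 239.8 CPM in transgenic corneas and 190.1, 208.4 and 198.2 CPM in wild-type corneas (edgeR adjusted p = 0.912). Pgrmc2, a haem-binding partner, averaged 87.5 ± 0.886 CPM in transgenic corneas (SD, n = 2) and 95.9 ± 3.47 CPM in wild-type corneas (SD, n = 3), with an edgeR adjusted p of 0.86.

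P450 genes varied more between corneas of 1 genotype than most genes did. For the 25 members with a mean of at least 1 CPM, the median ratio of the highest to the lowest wild-type cornea was 1.56, against 1.21 over 12111 genes. That ratio was at least 2-fold for 6 of the 25 members, or 24%, against 5.26% of the genes. Between the 2 transgenic corneas it was at least 2-fold for 5 members, or 20%, against 2.5% of the genes. The widest in transgenic corneas were Cyp4f5 at 13.2-fold, Cyp24a1 at 11.6-fold, Cyp4a8 at 5.7-fold and Cyp1a1 at 3.36-fold. The median level of these members was 5.24 CPM, against 25.5 CPM over the genes, and the part of the lower counts in the spread was not tested.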

How the data were processed

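The authors deposited expected counts (estimated counts, in which a read shared by transcripts is divided among them), 1 table per gene and 1 per isoform, and no other normalization is visible in the values. The submitters' processing notes name the rat build rn6 and, without role or order, the tools RSEM 1.2.28, STAR 2.5.3a, fastp, FastQC, edgeR 3.28.0 and DESeq2 1.26.0. The sources used here do not say if libraries are stranded, so a gene and an antisense partner cannot be told apart, and counts of close P450 copies are uncertain. Each column matched the description of 1 sample.

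Expected counts were rounded, filtered by edgeR's filterByExpr (minimum count 10), scaled by TMM and tested by the quasi-likelihood test of edgeR 4.0.16 (two-sided, robust, R 4.3.3) over the whole gene table, with Benjamini-Hochberg adjustment and a threshold of 0.05. Isoforms and isoform sums per gene name had fits and CPM scales of their own. A p-value sets the genotype difference against the spread between these libraries, with each gene's spread moderated by that of all genes. DESeq2 1.42.0, limma 3.58.1 (voom), other size factors, no filter, left-out corneas and a replicate block were alternatives. The scripts were tested on simulated counts. Same-numbered corneas gave correlations of their deviations of 0.000625 and -0.105, so the numbers were not used as pairs. Floors of 3 counts cover counting error only.

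A gene row was matched to isoforms where sums were equal within 0.06 counts in each cornea: 34 of the 65 rows equalled their own isoforms, 13 rows and isoforms were both at 0, 3 rows (Cyp4f39, Cyp4f5 and Cyp2j4) held isoforms of other names, 3 (Cyp26b1, Cyp2r1 and Cyp3a9) held 1 isoform without a gene name, 1 (Cyp2j10) held part of its own, and 11 were not resolved. Gene order and upstream windows come from RefSeq (GRCr8), and 55 members matched by symbol and 1 by synonym. No coordinates of the files were used.

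Members, roles and lists were chosen with earlier results of these data known. Members were named if they were called, among the 10 of highest mean CPM, under an unadjusted p of 0.05, separated by at least 1.5-fold without overlap at 1 CPM or more, steroid-forming, vitamin D or retinoic acid members, or tested isoform sums. Outside the P450s, the 2 highest and the 2 of smallest p in each list could be named. Other members, Ephx2 and the marker genes Gpnmb, Tyrp1, Rpe65, Ttr, Serpina1 and Apoa1 were named after their values were seen, to account for every role. The conjunctiva and gland markers and the adrenal markers Star and Nr5a1 were also named after their values were seen.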

Additional observations from a re-analysis of the deposited data

How the results depend on the processing

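No P450 gene was called under other size factors, no filter, DESeq2, limma voom, isoform sums or the replicate block. Leaving out each cornea gave 0 to 1 called P450 genes, the 1 being Cyp4f5 without transgenic cornea 1, and 0 called isoforms and isoform-only names throughout. The cause was not tested. The number of P450 genes under an unadjusted p of 0.05 ran from 0 to 7 when single corneas were left out (0 without wild-type cornea 1 or 2, 6 without wild-type cornea 3, 7 without transgenic cornea 1) and was 7 with the replicate block, against 2 as reported. With fewer than 3 pairs and no label that ties the numbers to a litter or day, the block cannot show that same-numbered corneas belong together. Wild-type cornea 3 has no transgenic partner, so under the block it adds nothing to the genotype estimate. Log2 fold changes under the block were near those without that cornea for Cyp39a1 (0.80 against 0.84) but not for Cyp4a8 (-0.41 against -0.02). The block changed no adjusted call. Of 224 alternative values for the 19 named genes, 217 kept the direction and side of the threshold, 1 passed it (Cyp4f5, log2 fold change -4.34) and 6 changed sign, each from leaving out a cornea. Those were Cyp2b2 (-0.18 to 0.43 over the left-out corneas), Cyp2s1 (-0.053 to 0.31), Cyp4a8 (-1.81 to 0.70, with 0.16 without wild-type cornea 2) and Cyp2r1 (-0.052 to 0.069, with -0.039 without wild-type cornea 1). Leaving out a transgenic cornea leaves 1, which is assumed to vary like the wild-type ones. Of the genes above 0 in transgenic against wild-type corneas, Cyp4f39 ran from 0.12 to 0.26, Cyp4f6 from 0.29 to 0.51 and Cyp4f17 from 0.57 to 1.05 over the left-out corneas. A missed threshold does not show that values were equal, and which changes of the low members could be found at this depth was not tested.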
